A study of Mus musculus with 203 samples.

Results

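The genes described here are 27 of the 24029 in a count table of single mouse nucleus ambiguus neurons: the ones that encode GABA and glycine receptors, the proteins that hold those receptors at inhibitory synapses, and the transporters that set chloride inside a neuron. They were chosen by name and comprise 16 GABA-A receptor subunits, 2 GABA-B receptor subunits, 5 glycine receptor subunits, the scaffold gene Gphn, the adhesion gene Nlgn2, and the chloride cotransporter genes Slc12a2 and Slc12a5, and the table holds them all. Each sample was 1 neuron of a mouse given as C57BL/6 in the labels and as C57BL/6NCrl in the study's methods, marked by a retrogradely transported cholera toxin B conjugate, aspirated from an acute slice between postnatal days 2 and 4 and sequenced by Smart-seq2, a full-length protocol without molecular identifiers. The tracer was injected on postnatal day 1, into the pericardial space for cardiac neurons and into the cricothyroid muscle of other mice for laryngeal neurons. Per the study's methods this was surgery under hypothermia with buprenorphine, and the mice were given isoflurane before decapitation. No other treatment and no altered allele was involved. The deposited annotation assigns 98 cardiac neurons to ACV and 53 to ACP, the ambiguus cardiovascular and cardiopulmonary types that the study defined by clustering these same counts, and 52 neurons to Larynx.

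GABA-A and glycine receptors are pentameric chloride channels, so the chloride gradient decides whether opening them hyperpolarizes or depolarizes a neuron. GABA-B receptors are G protein-coupled and act through potassium and calcium channels. Nucleus ambiguus motor neurons receive GABAergic and glycinergic input, part of it timed with breathing, and in newborn rodents both receptor composition and chloride handling are still maturing.

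Several mice contributed neurons, but the labels tie no neuron to a mouse or plate, so each type counted as 1 sample and no test was run. Cardiac and laryngeal neurons came from different mice, so the target and the mouse cannot be told apart. Levels are counts divided by the neuron's total outside the ribosomal precursor Rn45s and multiplied by 1000000 (CPM), given as lowest, median and highest over neurons. Shares are of neurons with at least 1 read, with exact Clopper-Pearson 95% intervals that cover counting error alone. Differences between types are log2 ratios of the mean CPM plus 1, over genes that at least 10% of one type's neurons had a read of.

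Counts outside Rn45s ranged from 330407 to 2396541 per ACP neuron, from 313668 to 2226230 per ACV neuron and from 118492 to 1821510 per laryngeal neuron, with a median of 560892 in the last. The labelled types matched marker genes that were themselves drawn from work on these neurons: 5 ACP genes (Calb1, Trhr, Tacr3, Mc4r, Pappa2) summed to medians of 624, 5.24 and 91 CPM in ACP, ACV and laryngeal neurons, 5 ACV genes (Bche, Ghsr, Htr3b, Sstr2, Hoxa5) to 13.7, 595 and 3.97 CPM, and 5 laryngeal genes (Calca, Calcb, Pnoc, Uts2, Dlk1) to 37.6, 44.3 and 2474 CPM. Each neuron had reads of cholinergic motor neuron genes. Genes of other cells were present too. The 8 astrocyte genes summed to medians of 2006, 2277 and 2794 CPM (ranges 200.8 to 9869, 128.97 to 31511 and 933 to 16169.9), with Gfap at a median of 0 in each type, and the 4 inhibitory neuron genes Gad1, Gad2, Slc32a1 and Slc6a5 to medians of 28.4, 9.64 and 58.2 CPM (ranges 0 to 1793, 0 to 1799 and 0 to 926). The 6 microglial genes summed to medians of 10.3, 19.3 and 18.6 CPM and means of 68.6, 348 and 190.4 CPM, and the 5 of them that passed the detection filter were at least 2-fold lower in ACP than in ACV (median log2 ratio −2.42) and than in laryngeal neurons (−1.49). The 8 genes of oligodendrocytes and their precursors summed to medians of 171.6, 160.4 and 229 CPM. Against laryngeal neurons, the 7 of them that passed the detection filter had a median log2 ratio of −0.14 in ACP and −0.61 in ACV. Pdgfra and Olig2, each at a median of 0 CPM in each type, were at least 2-fold higher in both cardiac types than in laryngeal neurons. The 3 glutamatergic genes summed to medians of 9.56, 9.68 and 79.9 CPM. The part of such RNA in the differences below was not tested beyond the subsets of neurons named next. Since brain cells of several kinds carry GABA and glycine receptors, members are also given below in the neurons with at most 900 counts of the astrocyte gene Apoe (26 ACP, 44 ACV and 38 laryngeal) and in those with under 20 CPM of the 4 inhibitory genes (25, 56 and 20), where that ended or made a call.

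Between ACP and ACV neurons 21 members passed the detection filter. In ACP 6 were at least 2-fold higher (Gabre, Gabrq, Gabra3, Gabrd, Glra2 and Glrb), where 7.55% of the 13356 genes tested were, and 1 was higher in ACV (Gabra4), where 6.31% of the genes were. By share of neurons, 3 were at least 20 percentage points higher in ACP (Gabrq by 60.3, Gabre by 56.1 and Gabra3 by 20 points), against 2.85% of all genes, and Gabra4 was 26.9 points higher in ACV, against 1.12%. The median log2 ratio of the members was 0.65, against 0.00 for all genes. Gabrg3 at 0.98 and Gabrb1 at −0.89 lay just inside the 2-fold limit. Because the types were defined by clustering these counts, this comparison is a description of them.

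Between ACP and laryngeal neurons 21 members passed. Gabre, Glra3, Gabra2 and Gabrg1 were at least 2-fold higher in ACP, 4 members where 8.09% of 13256 genes were, and Glra2 was higher in laryngeal neurons, 1 member where 10.1% of the genes were. By share, Gabre, Gabrg1, Glra3 and Gabrq were 63.9, 33.2, 31.7 and 29.1 points higher in ACP, against 5.33% of all genes, and 0 members were higher in laryngeal neurons, against 1.68%. The median log2 ratio was −0.15 for the members and −0.03 for all genes. Gabra3 and Gabrb1, both at 0.98, and Gabra4 at −0.93 lay just inside the limit.

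Between ACV and laryngeal neurons 20 members passed, and 9 of them were apart by 2-fold. Gabrb1, Glra3, Gabra2 and Gabra4 were higher in ACV, 4 members where 7.87% of 13297 genes were. Glra2, Gabrq, Slc12a5, Gabrg3 and Glrb were higher in laryngeal neurons, 5 members where 11.8% of the genes were. By share, Glra3, Gabra4 and Gabrg1 were 32.9, 31.8 and 23.9 points higher in ACV, against 4.32% of all genes, and Glra2 and Gabrq were 33.7 and 31.2 points higher in laryngeal neurons, against 3.02%. The median log2 ratio was −0.60 for the members and −0.02 for all genes. The 3 comparisons share their groups, so their ratios are not independent.

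**Figure D1:**
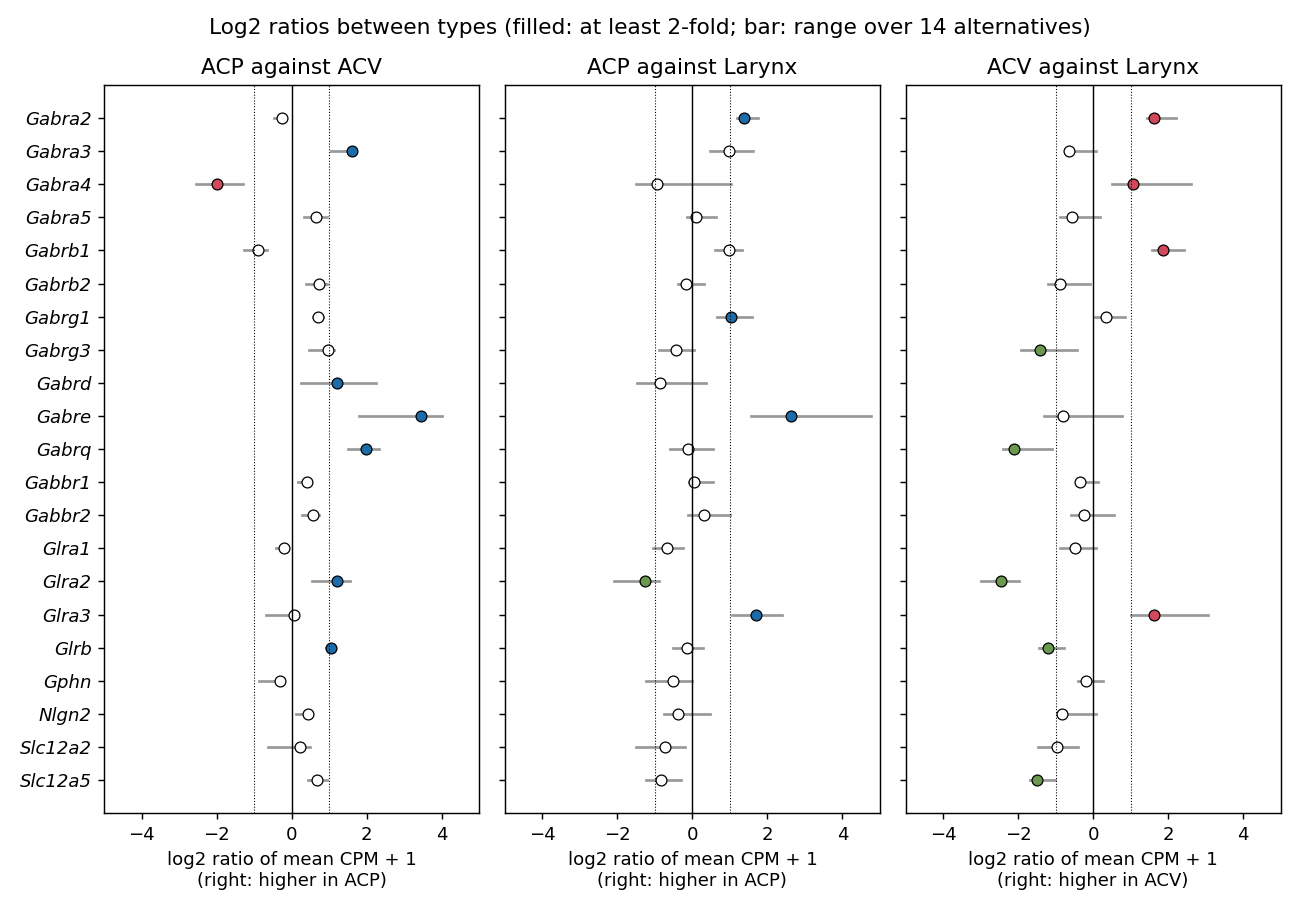
Log2 ratio of mean CPM plus 1 for each member that passed the detection filter, in the 3 comparisons of types, filled where it reached 2-fold, with bars over the range of 14 alternative settings and dotted lines at the 2-fold limits. Gabre lies farthest to the ACP side and Gabra4 farthest to the ACV side in ACP against ACV, and Glra2 lies farthest to the laryngeal side in ACV against laryngeal neurons.

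Of the 6 members called higher in ACP than in ACV, 3 were GABA-A subunit genes that lie near each other on the X chromosome, with Magea10 between Gabre and Gabra3. They are Gabre (chrX:72255999-72274803, minus strand), Gabra3 (chrX:72432681-72656848, minus strand) and Gabrq (chrX:72825178-72842602, plus strand), in mm10 coordinates. Gabre encodes the epsilon subunit, which confers insensitivity to many general anaesthetics in expressed receptors, Gabra3 an alpha subunit that contributes to the GABA binding site, and Gabrq the theta subunit. The exon-free bases upstream of each gene are shown because these 3 genes had the same direction in the comparison of cardiac types. They are RefSeq sequences on GRCm38.p6, read 5′ to 3′ on the strand of the gene, with capitals marking the GC box letters GGGCGG or the TATA letters TATAAA on either strand.
Gabre, chrX:72274804-72274921, minus strand: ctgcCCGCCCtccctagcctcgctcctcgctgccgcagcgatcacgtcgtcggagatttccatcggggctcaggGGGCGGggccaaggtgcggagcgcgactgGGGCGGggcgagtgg
Gabra3, chrX:72656920-72657119, minus strand: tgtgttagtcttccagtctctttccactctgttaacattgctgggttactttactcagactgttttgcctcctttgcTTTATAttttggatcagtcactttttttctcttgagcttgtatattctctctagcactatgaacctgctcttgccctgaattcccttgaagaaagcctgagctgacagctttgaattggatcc
Gabrq, chrX:72824978-72825177, plus strand: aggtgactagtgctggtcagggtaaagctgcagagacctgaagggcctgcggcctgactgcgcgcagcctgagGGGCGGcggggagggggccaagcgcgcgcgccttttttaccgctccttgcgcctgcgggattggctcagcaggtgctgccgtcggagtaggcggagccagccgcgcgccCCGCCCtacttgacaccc
The Gabre stretch ends 83 bases before the RefSeq start, since an annotated exon covers the bases between, and the Gabra3 stretch precedes the more upstream of its listed starts. The Gabre and Gabrq stretches were rich in G and C (73.7% and 69.5%) and held 15 and 19 CpG dinucleotides. The full 200 bases upstream of the Gabre RefSeq start, with 82 exon bases among them, were 68% G and C and held 19 CpG dinucleotides. The Gabra3 stretch was 41% G and C, held no CpG and had 1 TATAAA match on the opposite strand. In windows of 200 bases upstream of 32817 mouse promoters, 31% held GGGCGG, 9.96% held TATAAA and 1.47% held the cAMP response element letters TGACGTCA, and the median G and C content was 53%. Of 29 promoters that matched 24 of the members, 13 held GGGCGG, 3 held TATAAA and 0 held TGACGTCA, matches that describe letters and not sites in use.

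Gabre had lowest, median and highest levels of 0, 25.7 and 139.5 CPM in ACP neurons, 0, 0 and 42.7 CPM in ACV neurons and 0, 0 and 169.9 CPM in laryngeal neurons. The ranges overlapped, with 19 ACV neurons above 0 inside the ACP range and 1 laryngeal neuron above the highest ACP neuron, while 40 of the 53 ACP neurons lay above 0, the median of both other types. Gabre was read in 40 of 53 ACP neurons (75.5%, 61.7 to 86.2), 19 of 98 ACV neurons (19.4%, 12.1 to 28.6) and 6 of 52 laryngeal neurons (11.5%, 4.35 to 23.4), and its mean was 31.9 CPM in ACP, 2.03 CPM in ACV and 4.27 CPM in laryngeal neurons. The ACP mean was 10.9-fold the ACV mean on the CPM plus 1 scale (log2 ratio 3.44), the largest ratio among the members in any of the 3 comparisons. Against laryngeal neurons the log2 ratio was 2.64, although 76.4% of the laryngeal level came from 1 neuron. Without the highest neuron of each type, that ratio was 3.93. The ratio of ACV to laryngeal neurons, −0.80, became 0.36 by the same omission.

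Gabra3 had lowest, median and highest levels of 0, 93.4 and 1067 CPM in ACP neurons, 0, 15.1 and 430.3 CPM in ACV neurons and 0, 27.7 and 733 CPM in laryngeal neurons. Reads were found in 49 of 53 ACP neurons (92.5%, 81.8 to 97.9), 71 of 98 ACV neurons (72.4%, 62.5 to 81) and 43 of 52 laryngeal neurons (82.7%, 69.7 to 91.8), so that most neurons of each type carried it and the types differed mainly in level. The log2 ratio of the means was 1.61 between ACP and ACV, 0.98 between ACP and laryngeal and −0.63 between ACV and laryngeal neurons. Per kilobase of exon, Gabra3 was the leading gene among the 4 abundant alpha subunit genes (Gabra2, Gabra3, Gabra4 and Gabra5) in 27 of 53 ACP neurons, 15 of 98 ACV neurons and 12 of 52 laryngeal neurons.

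Gabrq had lowest, median and highest levels of 0, 33.6 and 344 CPM in ACP neurons, 0, 0 and 222 CPM in ACV neurons and 0, 9.32 and 454 CPM in laryngeal neurons. Here the laryngeal neurons lay with ACP, not with ACV, by their mean. Gabrq was read in 46 of 53 ACP neurons (86.8%, 74.7 to 94.5), 26 of 98 ACV neurons (26.5%, 18.1 to 36.4) and 30 of 52 laryngeal neurons (57.7%, 43.2 to 71.3), and the means were 54.6 CPM in ACP, 13 CPM in ACV and 59.2 CPM in laryngeal neurons. The log2 ratio was 1.99 between ACP and ACV, −2.10 between ACV and laryngeal and −0.11 between ACP and laryngeal neurons. After thinning each neuron to 200000 counts, which left out 3 laryngeal neurons, it was read in 75.5%, 22.4% and 61.2% of ACP, ACV and laryngeal neurons. The ACP and laryngeal shares, 29.1 percentage points apart before thinning, then no longer differed by 20 points.

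Reads of the 3 genes together were counted in single neurons. Whether genes met more often than their separate shares imply was not tested, here or for the pairs below. All 3 were read in 35 of 53 ACP neurons (66%, 51.7 to 78.5), in 8 of 98 ACV neurons (8.16%, 3.59 to 15.5) and in 5 of 52 laryngeal neurons (9.62%, 3.20 to 21), and none of the 3 in 2 ACP, 23 ACV and 6 laryngeal neurons. The thinned shares were 71.7%, 13.3% and 10.2% for Gabre and 90.6%, 61.2% and 77.6% for Gabra3 in the same order of types, so the separation of ACP from ACV was present at equal depth. Of 51 other genes within 1000000 bases of the cluster, 27 passed the detection filter, with a median log2 ratio of ACP to ACV of 0.04 (range −0.76 to 1.54). In this window 3 of them, Xlr3c, Plxnb3 and Srpk3, which were named after their values were seen, were at least 2-fold higher in ACP, where 7.55% of all genes were, and 0 in ACV, where 6.31% were.

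The X-linked position makes the sex of the mice relevant, and the labels do not give it. Reads of the female-specific RNA Xist were found in 64.2% of ACP, 43.9% of ACV and 26.9% of laryngeal neurons, and reads of Ddx3y, Eif2s3y, Kdm5d or Uty, which are Y-linked, in 49.1%, 58.2% and 63.5%. Of these 5 sex genes, by a 2-fold difference of the means, Kdm5d was higher in ACV than in ACP (median of the 5 log2 ratios −0.41), Xist was higher in ACP and Kdm5d in laryngeal neurons when those were compared (median −0.45), and Xist was higher in ACV than in laryngeal neurons (median 0.62). Among the 26 ACP and 57 ACV neurons with a Y-linked read, the log2 ratios of ACP to ACV were 3.67 for Gabre, 1.59 for Gabra3 and 1.62 for Gabrq. Of these neurons 8 ACP and 9 ACV ones also had a read of Xist, so a Y-linked read did not by itself mark a neuron of a male.

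**Figure D2:**
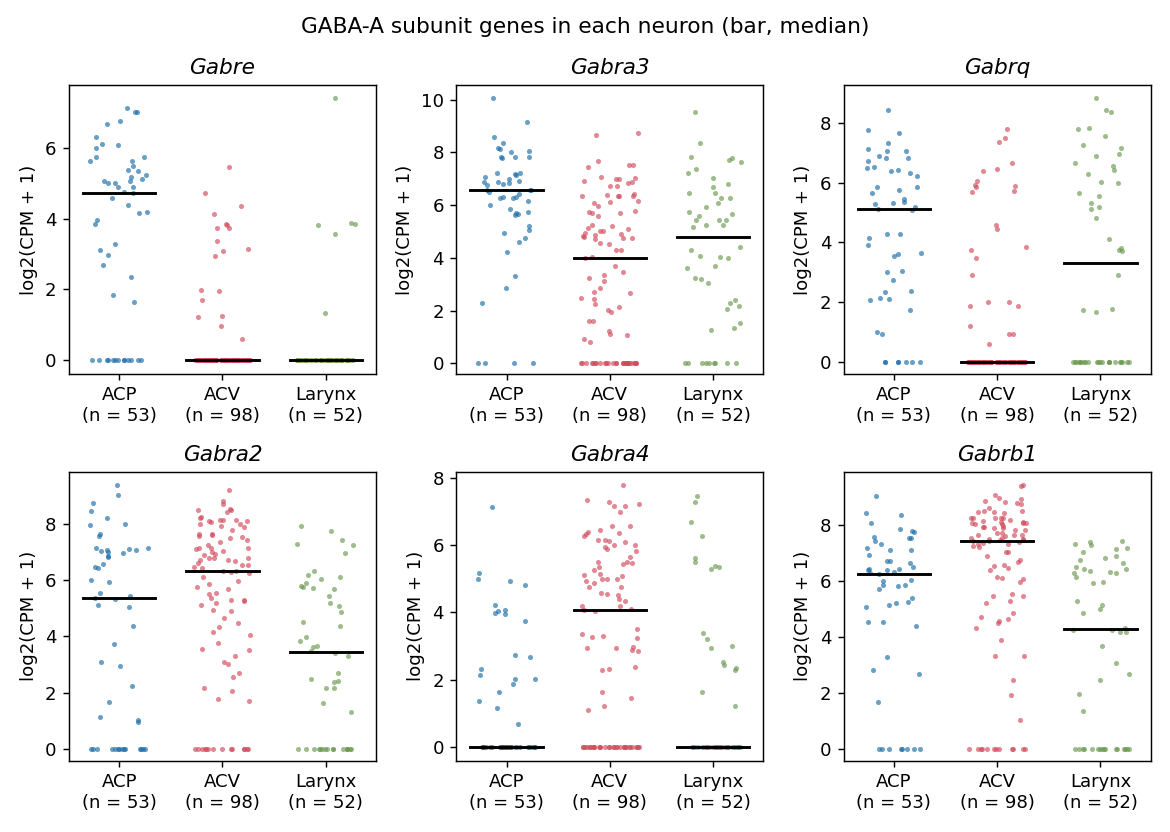
Log2 of CPM plus 1 of the GABA-A receptor subunit genes Gabre, Gabra3, Gabrq, Gabra2, Gabra4 and Gabrb1 in each neuron, with 1 point per neuron and a bar at the median of each type (53 ACP, 98 ACV and 52 laryngeal neurons). Gabre and Gabrq points lie above 0 in most ACP neurons and at 0 in most ACV neurons, while Gabra4 shows the opposite order.

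A second GABA-A cluster, on chromosome 5 (chr5:70751047-72149037), holds Gabrg1, Gabra2, Gabra4 and Gabrb1, and its members differed in direction between ACP and ACV, while all 4 had the higher mean in ACV when ACV and laryngeal neurons were compared. Gabra4 was the one GABA-A member at least 2-fold higher in ACV than in ACP. Gabra4 encodes an alpha subunit often found in receptors outside synapses, Gabra2 one typical of synapses, Gabrb1 a beta subunit and Gabrg1 a gamma subunit found in neurons and in glia.

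Gabra4 had lowest, median and highest levels of 0, 0 and 137.7 CPM in ACP neurons, 0, 15.6 and 219 CPM in ACV neurons and 0, 0 and 172.9 CPM in laryngeal neurons. It was read in 22 of 53 ACP neurons (41.5%, 28.1 to 55.9), 67 of 98 ACV neurons (68.4%, 58.2 to 77.4) and 19 of 52 laryngeal neurons (36.5%, 23.6 to 51), and after thinning in 28.3%, 61.2% and 34.7%. The log2 ratio was −2.0 between ACP and ACV and 1.07 between ACV and laryngeal neurons. The second ratio was 0.51 among the 91 ACV and 31 laryngeal neurons with at least 500000 counts, and 0.97 as a ratio of summed counts, so that call depended on the neurons and weighting used. Between ACP and laryngeal neurons the ratio was −0.93 and went from −1.52 to 1.04 over the 14 alternative settings, the last value being that of neurons with under 20 CPM of the inhibitory genes. Gabra4 and Gabrb1 lie head to head and share 46 exon bases on opposite strands, where reads of this unstranded library kit cannot be assigned to one of them.

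Gabrb1 had lowest, median and highest levels of 0, 76.2 and 529 CPM in ACP neurons, 0, 174.3 and 698 CPM in ACV neurons and 0, 18.7 and 171.2 CPM in laryngeal neurons. Its median was highest in ACV neurons, and the log2 ratio of the means was 1.87 between ACV and laryngeal, 0.98 between ACP and laryngeal and −0.89 between ACP and ACV neurons. Over all neurons the first of these reached 2-fold, and among neurons with at most 900 counts of Apoe the others did too, at 1.17 and −1.25. The ratio of ACP to ACV also did among neurons with under 20 CPM of the inhibitory genes. Both Gabra4 and Gabrb1 were read in 20 of 53 ACP neurons (37.7%, 24.8 to 52.1), 60 of 98 ACV neurons (61.2%, 50.8 to 70.9) and 17 of 52 laryngeal neurons (32.7%, 20.3 to 47.1).

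Gabra2 had lowest, median and highest levels of 0, 39.8 and 662 CPM in ACP neurons, 0, 79.3 and 579 CPM in ACV neurons and 0, 9.90 and 239 CPM in laryngeal neurons. Both cardiac types were above the laryngeal neurons, with log2 ratios of 1.38 for ACP and 1.63 for ACV, while the ratio between ACP and ACV was −0.25. The shares with a read were closer than the levels, at 73.6%, 85.7% and 69.2% of ACP, ACV and laryngeal neurons. Gabra2 led the 4 alpha subunit genes per kilobase in 36 of 98 ACV neurons, against 8 of 53 ACP and 3 of 52 laryngeal neurons.

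Gabrg1 had lowest, median and highest levels of 0, 31.5 and 219.8 CPM in ACP neurons, 0, 13 and 243 CPM in ACV neurons and 0, 0 and 285 CPM in laryngeal neurons. Reads of it came from 39 of 53 ACP neurons (73.6%, 59.7 to 84.7), 63 of 98 ACV neurons (64.3%, 54 to 73.7) and 21 of 52 laryngeal neurons (40.4%, 27 to 54.9), and in 71.7%, 58.2% and 34.7% after thinning, so that fewer laryngeal than cardiac neurons had a read at equal depth. The log2 ratio of ACP to laryngeal neurons was 1.04, just past 2-fold, and was 0.64 among the neurons with at most 900 counts of Apoe and 0.97 after thinning. Between ACP and ACV it was 0.70.

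Gabra5, an alpha subunit common in early development (chr7:57407672-57510059, minus strand), was not called apart in any comparison. Gabra5 had lowest, median and highest levels of 0, 47.4 and 693 CPM in ACP neurons, 0, 12.3 and 471 CPM in ACV neurons and 0, 61.2 and 441 CPM in laryngeal neurons, and its log2 ratios were 0.65, 0.09 and −0.56 for ACP against ACV, ACP against laryngeal and ACV against laryngeal neurons. It led the alpha subunits per kilobase in 28 of 52 laryngeal neurons and 38 of 98 ACV neurons, more than any of the other three. In ACP neurons it led in 17 of 53, behind Gabra3.

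Gabrb2 (chr11:42419757-42629028, plus strand), one of the most widespread beta subunits of the brain, was not called apart either. Gabrb2 had lowest, median and highest levels of 0, 91.4 and 624 CPM in ACP neurons, 0, 61.6 and 406 CPM in ACV neurons and 0, 104.2 and 821 CPM in laryngeal neurons, and 96.2%, 94.9% and 86.5% of the neurons had a read. Gabrg3, a gamma subunit beside Gabra5 on chromosome 7, was read in 19 of 53 ACP neurons (35.8%, 23.1 to 50.2), 20 of 98 ACV neurons (20.4%, 12.9 to 29.7) and 19 of 52 laryngeal neurons (36.5%, 23.6 to 51). Gabrg3 had lowest, median and highest levels of 0, 0 and 175.6 CPM in ACP neurons, 0, 0 and 157.7 CPM in ACV neurons and 0, 0 and 140.8 CPM in laryngeal neurons, so that its median was 0 in each type. Its mean was 12.8 CPM in ACP, 6.02 CPM in ACV and 17.7 CPM in laryngeal neurons. The log2 ratio of ACP to ACV was 0.98, that of ACP to laryngeal neurons −0.44 and that of ACV to laryngeal neurons −1.42, and the last became −0.44 among neurons with under 20 CPM of the inhibitory genes.

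Gabrd, which encodes the delta subunit of receptors outside synapses, was read in 6 of 53 ACP neurons (11.3%, 4.27 to 23), 3 of 98 ACV neurons (3.06%, 0.636 to 8.69) and 4 of 52 laryngeal neurons (7.69%, 2.14 to 18.5). Gabrd had lowest, median and highest levels of 0, 0 and 34.9 CPM in ACP neurons, 0, 0 and 18.9 CPM in ACV neurons and 0, 0 and 144.8 CPM in laryngeal neurons, and its mean was 2.23 CPM in ACP, 0.393 CPM in ACV and 4.86 CPM in laryngeal neurons. Against laryngeal neurons the log2 ratio of ACP was −0.86, and it passed 2-fold among neurons with at most 900 counts of Apoe. ACV against laryngeal neurons did not pass the detection filter. Its log2 ratio of 1.21 between ACP and ACV rested on 9 neurons with a read, and 57.3% of its laryngeal level came from 1 neuron. Among the neurons with under 20 CPM of the inhibitory genes it was 0.47, and among those with at most 900 counts of Apoe 1.45, where too few neurons had a read for it to pass the detection filter. The remaining GABA-A members were near absent from the counts: Gabra6, the cerebellar granule cell alpha subunit, was read in 0 ACP, 0 ACV and 1 laryngeal neuron, and Gabrp in 0, 1 and 0. The rho subunit genes Gabrr1, Gabrr2 and Gabrr3, best known from retina, were read in 2, 0 and 1, in 2, 1 and 1, and in 1, 0 and 0 neurons. Taken as 3 counts of the total, a count of 0 allows a share of up to 5.66% of ACP, 3.06% of ACV and 5.77% of laryngeal neurons, and the exact interval reaches 6.72%, 3.7% and 6.85%.

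**Figure D3:**
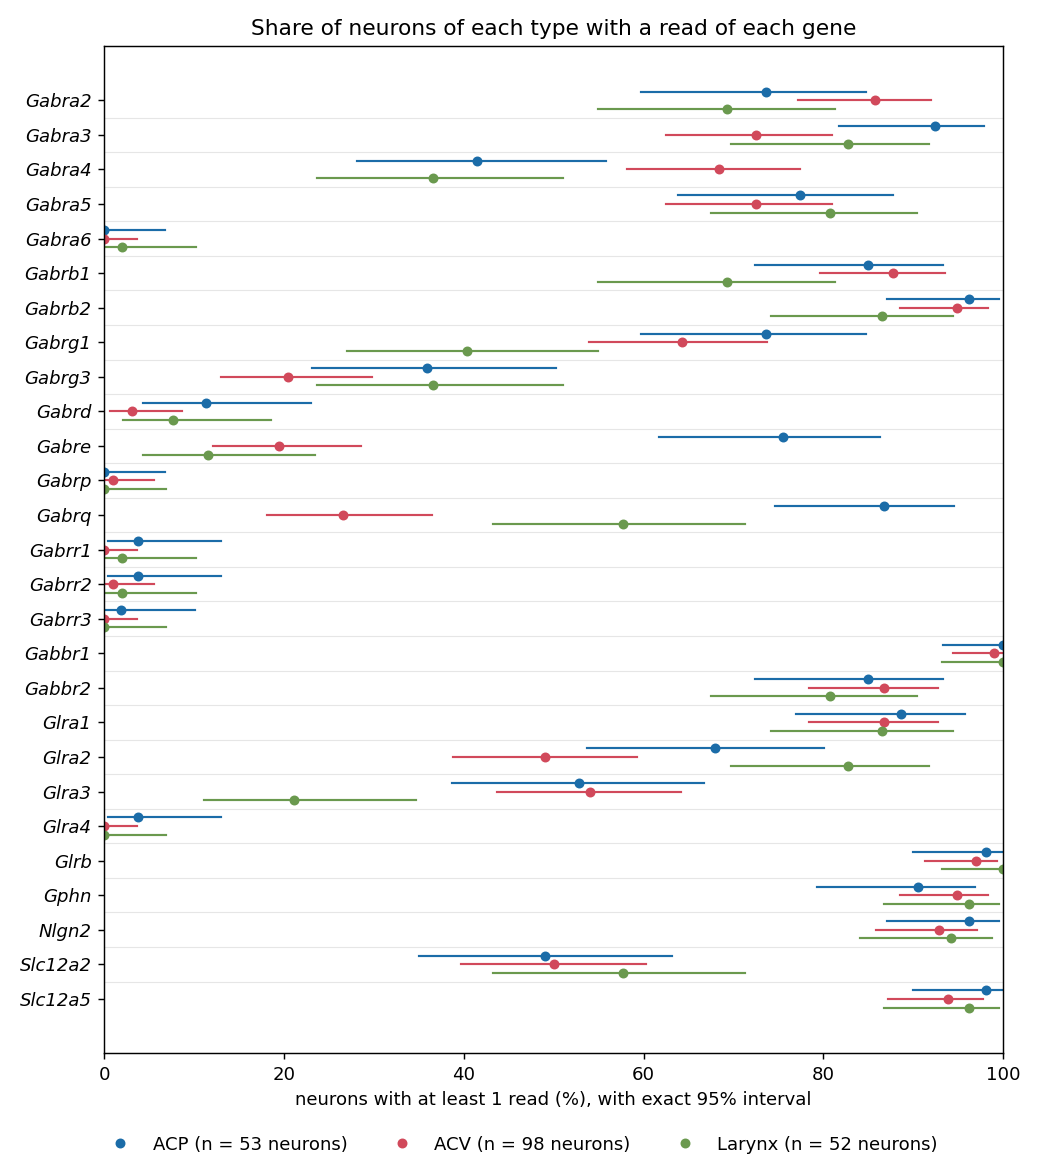
Percentage of neurons with at least 1 read of each gene, by type, with exact 95% intervals as bars (53 ACP, 98 ACV and 52 laryngeal neurons). Gabre was read in 75.5% of ACP and 19.4% of ACV neurons, and Gabrq in 86.8% and 26.5%. Gabbr1, Glrb, Gphn, Nlgn2 and Slc12a5 are read in over 90% of the neurons of each type, and the intervals cover counting error alone.

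Neither GABA-B subunit gene reached 2-fold between types. Gabbr1, which binds GABA, and Gabbr2, which couples to the G protein, work as a pair. Gabbr1 had lowest, median and highest levels of 33.5, 224 and 801 CPM in ACP neurons, 0, 177.3 and 1185 CPM in ACV neurons and 21.9, 221 and 1001 CPM in laryngeal neurons, and it was read in all neurons but 1 of ACV. Gabbr2 had lowest, median and highest levels of 0, 61.9 and 543 CPM in ACP neurons, 0, 63 and 418 CPM in ACV neurons and 0, 63.3 and 396 CPM in laryngeal neurons. The log2 ratios of both genes lay between −0.35 and 0.58 in the 3 comparisons, inside the 2-fold limit. For Gabbr2 the ratio of ACP to laryngeal neurons was 0.32 over all neurons, 1.0 among those with under 20 CPM of the inhibitory genes and −0.13 among those with a Y-linked read.

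The auxiliary GABA-B subunits, potassium channel tetramerization domain proteins that shape the speed and desensitization of the response, differed more than the receptor itself. Of 4 listed genes 3 passed the detection filter, and here and for the lists below higher or lower stands for a 2-fold difference of the means. Of all genes tested between ACP and ACV, 7.55% were higher in ACP and 6.31% in ACV. Between ACP and laryngeal neurons 8.09% and 10.1% were, and between ACV and laryngeal neurons 7.87% and 11.8%. Kctd8 had mean levels of 12.3, 48.5 and 37 CPM in ACP, ACV and laryngeal neurons, Kctd12 of 28.5, 13.1 and 91.3 CPM and Kctd16 of 22.7, 53.9 and 12.1 CPM. Each type thus had its own combination: Kctd8 and Kctd16 were at least 2-fold higher in ACV than in ACP and Kctd12 lower (median log2 ratio −1.21), Kctd8 and Kctd12 were higher in laryngeal than in ACP neurons (median −1.51), and in ACV against laryngeal neurons Kctd16 was higher and Kctd12 lower (median 0.38). Kctd8 and Kctd16 were both read in 12 of 53 ACP neurons (22.6%, 12.3 to 36.2), 48 of 98 ACV neurons (49%, 38.7 to 59.3) and 17 of 52 laryngeal neurons (32.7%, 20.3 to 47.1).

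Among the glycine receptor alpha subunit genes, Glra2 had the highest mean in laryngeal neurons and the lowest in ACV neurons, Glra3 had higher means in both cardiac types than in laryngeal neurons, and Glra1 was not called apart. In newborn rodents the alpha subunit of Glra2, abundant before birth, gives way to that of Glra1, while Glra3 has a more restricted expression and Glrb encodes the beta subunit that anchors the receptor to gephyrin. In mm10 they lie apart: Glra1 at chr11:55514238-55608198, minus strand, Glra2 at chrX:165129017-165327393, minus strand, Glra3 at chr8:55940460-56130070, plus strand and Glrb at chr3:80843599-80913660, minus strand. The exons of Glra1 overlap a gene on the opposite strand.

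Glra2 had lowest, median and highest levels of 0, 16.5 and 348 CPM in ACP neurons, 0, 0 and 281 CPM in ACV neurons and 0, 53.1 and 445 CPM in laryngeal neurons. It was read in 36 of 53 ACP neurons (67.9%, 53.7 to 80.1), 48 of 98 ACV neurons (49%, 38.7 to 59.3) and 43 of 52 laryngeal neurons (82.7%, 69.7 to 91.8), and in 62.3%, 38.8% and 83.7% after thinning, with laryngeal neurons highest and ACV neurons lowest. The means were 38.3 CPM in ACP, 16.1 CPM in ACV and 93 CPM in laryngeal neurons, and the laryngeal mean was 5.50-fold the ACV mean on the CPM plus 1 scale (log2 ratio of ACV to laryngeal −2.46). The log2 ratio was 1.2 between ACP and ACV and −1.26 between ACP and laryngeal neurons. The first of these was 0.53 among neurons with under 20 CPM of the inhibitory genes, and the second −0.90 when Rn45s was kept in the totals. Glra2 is X-linked as well, and among neurons with a Y-linked read the 3 ratios were −2.64, 1.31 and −1.33 in the order given.

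Glra3 had lowest, median and highest levels of 0, 0.938 and 298 CPM in ACP neurons, 0, 1.68 and 284 CPM in ACV neurons and 0, 0 and 160.9 CPM in laryngeal neurons. Its reads came from 28 of 53 ACP neurons (52.8%, 38.6 to 66.7), 53 of 98 ACV neurons (54.1%, 43.7 to 64.2) and 11 of 52 laryngeal neurons (21.2%, 11.1 to 34.7), with the laryngeal neurons lowest. Both cardiac types had the higher means, with log2 ratios to laryngeal neurons of 1.69 for ACP and 1.63 for ACV, and 42.4% of the laryngeal level came from 1 neuron. After thinning the shares were 35.8%, 49% and 18.4%.

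Glra1 had lowest, median and highest levels of 0, 5.77 and 76.3 CPM in ACP neurons, 0, 5.65 and 121.4 CPM in ACV neurons and 0, 10.9 and 139.2 CPM in laryngeal neurons, a low level in most neurons of each type. It was read in 88.7%, 86.7% and 86.5% of ACP, ACV and laryngeal neurons, and no comparison reached 2-fold over all neurons. ACP against laryngeal neurons had a log2 ratio of −0.68, and of −1.01 among neurons with at least 500000 counts. Glra4 was read in 2 ACP neurons and in no other. The log2 ratio of Glra1 to Glra2 within a neuron, per kilobase after adding 1, had medians of −0.16 in ACP, 0.74 in ACV and −1.33 in laryngeal neurons, and was above 0 in 22 of 53, 57 of 98 and 12 of 52. Glra2 was the leading glycine alpha subunit gene in 27 of 53 ACP and 35 of 52 laryngeal neurons, and Glra1 in 45 of 98 ACV neurons. Glra3 led in 9 ACP, 16 ACV and 1 laryngeal neuron.

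Glrb had lowest, median and highest levels of 0, 194.1 and 892 CPM in ACP neurons, 0, 84.2 and 624 CPM in ACV neurons and 7.53, 245 and 838 CPM in laryngeal neurons. Nearly every neuron had a read (98.1%, 96.9% and 100%), with mean levels of 246 CPM in ACP, 117.9 CPM in ACV and 274 CPM in laryngeal neurons. The log2 ratio was 1.06 between ACP and ACV and −1.21 between ACV and laryngeal neurons, both just past 2-fold. The first was 0.91 among neurons with under 20 CPM of the inhibitory genes and the second −0.77 with Rn45s in the totals. Keeping Rn45s shifted the median log2 ratio of all genes between ACV and laryngeal neurons the same way. Per kilobase of exon Glrb had the highest mean of the members in ACP and laryngeal neurons and the third in ACV neurons, at 52.9, 25.3 and 58.9 CPM per kilobase in ACP, ACV and laryngeal neurons.

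**Figure D4:**
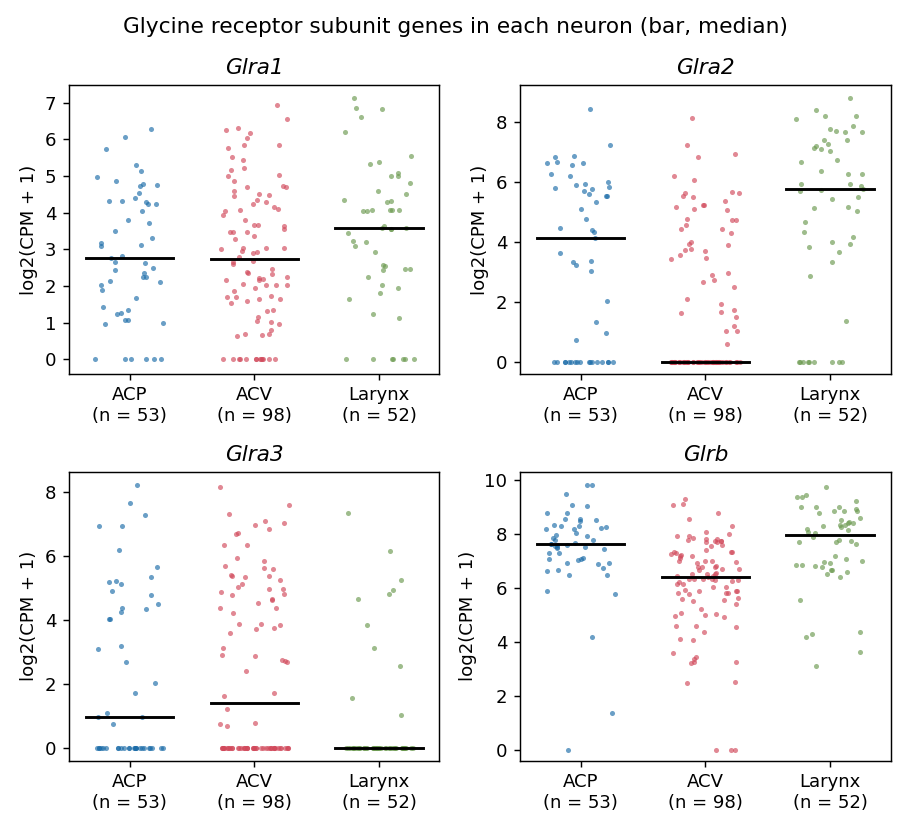
Log2 of CPM plus 1 of the glycine receptor genes Glra1, Glra2, Glra3 and Glrb in each neuron, with 1 point per neuron and a bar at the median of each type (53 ACP, 98 ACV and 52 laryngeal neurons). Glra2 medians correspond to 0 CPM in ACV, 16.5 CPM in ACP and 53.1 CPM in laryngeal neurons, and Glra3 is at 0 in most laryngeal neurons.

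Gphn and Nlgn2 were read in over 90% of the neurons of each type. Gphn (chr12:78226379-78684772, plus strand) encodes gephyrin, which clusters glycine and many GABA-A receptors under the synapse, and Nlgn2 (chr11:69823122-69837784, minus strand) the neuroligin of inhibitory synapses. Gphn had lowest, median and highest levels of 0, 58.6 and 299 CPM in ACP neurons, 0, 80.8 and 309 CPM in ACV neurons and 0, 81.4 and 626 CPM in laryngeal neurons. Nlgn2 had lowest, median and highest levels of 0, 55.9 and 375 CPM in ACP neurons, 0, 48.4 and 261 CPM in ACV neurons and 0, 83.5 and 596 CPM in laryngeal neurons. Neither reached 2-fold in a comparison, with log2 ratios between −0.84 and 0.45. The ratio of ACP to laryngeal neurons for Gphn, −0.51 over all neurons, was −1.02 among those with at most 900 counts of Apoe and −1.23 among those with under 20 CPM of the inhibitory genes. Of 20 listed partner proteins 17 were found in the table by symbol (median log2 ratio of ACP to ACV −0.07). Lhfpl3 and Shisa7 were higher in ACP than in ACV, 2 genes where 7.55% of all genes were. Magi2 was lower, 1 gene where 6.31% of all genes were. Magi2 was also higher in laryngeal than in ACP neurons (median −0.14), 1 gene where 10.1% of all genes were. In ACV against laryngeal neurons Igsf9b was higher and Lhfpl3, Shisa7 and Mdga1 lower (median −0.01), where 7.87% and 11.8% of all genes were. Shisa7, an auxiliary GABA-A subunit, had mean levels of 35.6, 12.9 and 62.3 CPM in ACP, ACV and laryngeal neurons, and Lhfpl3, a relative of the receptor partner Lhfpl4, of 53.7, 22.1 and 59.5 CPM.

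The chloride extruder gene Slc12a5 exceeded the chloride importer gene Slc12a2 in most neurons of each type, and it was highest in laryngeal neurons. Slc12a5 (chr2:164960802-164999731, plus strand) encodes the neuronal potassium-chloride cotransporter, whose increase after birth lowers intracellular chloride, and Slc12a2 the sodium-potassium-chloride cotransporter, also made by glia. Slc12a5 had lowest, median and highest levels of 0, 90.4 and 655 CPM in ACP neurons, 0, 58.5 and 476 CPM in ACV neurons and 0, 166.4 and 736 CPM in laryngeal neurons. Its mean was 122.3 CPM in ACP, 76.8 CPM in ACV and 220.3 CPM in laryngeal neurons. The log2 ratio of ACV to laryngeal neurons was −1.51, past 2-fold under each of the 14 alternative settings. Settings that changed only the detection filter could not move this ratio. The ratio of ACP to ACV was 0.66 and that of ACP to laryngeal neurons −0.84, both short of 2-fold. Among neurons with under 20 CPM of the inhibitory genes, the latter was −1.03, and among those with a Y-linked read it was −1.25.

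Slc12a2 had lowest, median and highest levels of 0, 0 and 179.9 CPM in ACP neurons, 0, 0.284 and 165.3 CPM in ACV neurons and 0, 3.03 and 178.2 CPM in laryngeal neurons. It was read in 26 of 53 ACP neurons (49.1%, 35.1 to 63.2), 49 of 98 ACV neurons (50%, 39.7 to 60.3) and 30 of 52 laryngeal neurons (57.7%, 43.2 to 71.3), shares that overlapped. After thinning they were 32.1%, 35.7% and 53.1%. The log2 ratios of the means were 0.21 for ACP to ACV, −0.74 for ACP to laryngeal and −0.95 for ACV to laryngeal neurons. Over the alternative settings the last pair went from −1.51 to −0.19 and from −1.47 to −0.41, so that 2-fold was passed in some of them. For ACP to laryngeal neurons these were the neurons with a Y-linked read and those with under 20 CPM of the inhibitory genes. The log2 ratio of Slc12a5 to Slc12a2 within a neuron, per kilobase after adding 1, had medians of 3.13 in ACP (range −2.16 to 5.62), 2.48 in ACV (range −2.07 to 5.23) and 4.07 in laryngeal neurons (range 0 to 5.97). It was above 0 in 50 of 53, 87 of 98 and 50 of 52 neurons. The ranges of the types overlapped over most of their length, and with 0.1 added in place of 1 the ACP and ACV medians changed order (4.57 and 4.70). Since reads of astrocyte genes were present in each type, how far Slc12a2 reads came from the neuron itself was not tested.

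**Figure D5:**
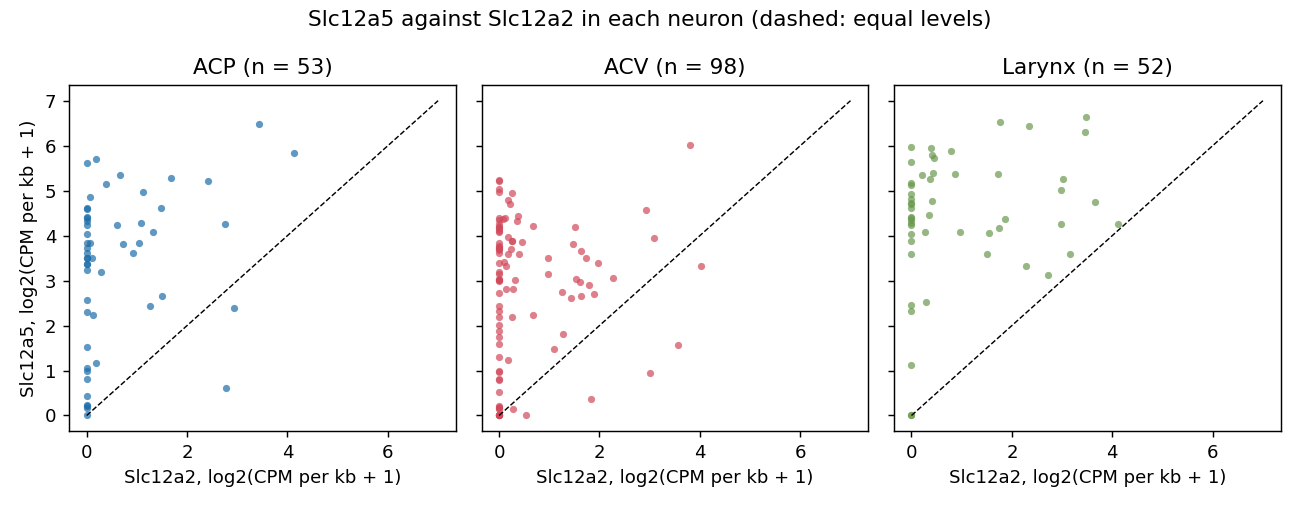
Slc12a5 (vertical axis) against Slc12a2 (horizontal axis) in log2 of CPM per kilobase plus 1, with 1 point per neuron, a panel for each type (53 ACP, 98 ACV and 52 laryngeal neurons) and a dashed line at equal levels. Points lie above the line in 94.3% of ACP, 88.8% of ACV and 96.2% of laryngeal neurons.

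Of 13 other cation-chloride cotransporters and the kinases that regulate them 10 passed the detection filter. None was called apart between ACP and ACV (median log2 ratio 0.32), where 7.55% of all genes were higher in ACP and 6.31% in ACV. Slc12a4, Wnk2, Wnk4 and Stk39 were higher in laryngeal than in ACP neurons (median −0.35), and Slc12a9, Wnk2 and Stk39 higher in laryngeal than in ACV neurons (median −0.57). Of all genes 10.1% and 11.8% were higher in laryngeal neurons in these comparisons. The kinase genes Wnk2 and Stk39 had mean levels of 47.5, 45.3 and 98.7 CPM and of 38.9, 26.6 and 81.6 CPM in ACP, ACV and laryngeal neurons. Of 7 genes of other chloride transport 6 passed, and the shares of all genes beside them are those given with the GABA-B auxiliary subunits. Clcn2 and Ano1 were higher and Ano2 lower in ACP than in ACV neurons (median 0.20), although Ano1 was read in a smaller share of ACP neurons (5.66%) than of ACV neurons (10.2%) at means of 3.37 and 0.768 CPM. In the other comparisons Ano2 was higher in ACP than in laryngeal neurons (median 0.18), and in ACV against laryngeal neurons Ano2 was higher and Clcn2 lower (median −0.58). Ano2, a calcium-activated chloride channel, had mean levels of 9.97, 94.9 and 3.17 CPM and was read in 13.2% of ACP, 68.4% of ACV and 5.77% of laryngeal neurons.

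The genes that make and move GABA and glycine mark inhibitory neurons and were read here in cholinergic neurons at low medians. Of 13 listed, 12, 11 and 12 passed the filter in the 3 comparisons, and the shares of all genes are those given with the GABA-B auxiliary subunits. Slc6a5 was higher in ACP than in ACV neurons (median of the list 0.20), 1 gene where 7.55% of all genes were. Reads of Slc6a5 came from 24.5% of ACP and 17.3% of ACV neurons, at means of 53.4 and 18.4 CPM and a median of 0 in both. Slc6a13 was higher in ACP and Gad1, Gad2 and Slc32a1 higher in laryngeal neurons when those were compared (median −0.14), and Gad1, Gad2 and Gldc were higher in laryngeal than in ACV neurons (median −0.57). Gad1, a GABA synthesis enzyme, had mean levels of 20, 27.9 and 84.2 CPM in ACP, ACV and laryngeal neurons. The part of RNA from neighbouring inhibitory neurons in these levels was not tested.

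A single neuron carried reads of a median of 16 members in ACP, 15 in ACV and 15 in laryngeal neurons, and of 14, 13 and 15 after thinning. Of the 16 GABA-A subunit genes a median of 8, 7 and 6 were read, and of the 4 glycine alpha subunit genes 2 in each type. By mean level per kilobase of exon, Glrb, Gabbr1 and Gabra3 came first in ACP neurons (52.9, 37.9 and 34.7 CPM per kilobase), Gabbr1, Gphn and Glrb in ACV neurons (28.7, 25.4 and 25.3) and Glrb, Gabbr1 and Slc12a5 in laryngeal neurons (58.9, 36.7 and 29.6). The interquartile range over neurons of each of these genes was wider than its gap to the next.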

How the data were processed

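The authors deposited raw read counts per gene for single neurons, with an annotation that assigns each neuron to a type. Per the study's methods and the submitters' processing notes, Smart-seq2 libraries made with Nextera XT, which does not record strand, were sequenced as 75-base pairs on an Illumina NextSeq instrument, trimmed and aligned to mm10 with STAR 2.6.1d. The counting program and its annotation are not given in the sources used here. A deposited table of normalized values was not used, since its columns did not sum to a common total. All columns of the count table matched a labelled neuron (0 unused).

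Counts were divided by each neuron's total outside Rn45s, the precursor of ribosomal RNA, and multiplied by 1000000 (CPM). The median of that total was 560892 in laryngeal neurons, below the cardiac types, so low genes were less often detectable in the last, and shares are also given after thinning to 200000 counts (seed 1). Reads are not independent molecules here, so intervals cover counting error alone. A gene was tested where 10% or more of one type's neurons had a read and called where the mean CPM plus 1 differed at least 2-fold or the share by at least 20 percentage points. Since neurons of unnamed mice are not replicates, no p-value was computed. Levels of different genes were compared per kilobase of their merged exons (GENCODE annotation of GRCm38, which is mm10). Upstream sequences came from RefSeq on GRCm38.p6. The shared exon bases on opposite strands are uncertain for Gabra4, Gabrb1, Gabra5, Gabrr3, Glra1 and Gphn.

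Each of the 27 members is named, with full values for those that passed the detection filter and were called in some comparison and for the glycine receptor, scaffold and chloride transporter genes. The members and the pathway lists were chosen with earlier results of these data known. The scripts were tested on simulated data. Alternatives were other pseudocounts, filters, library sizes (edgeR 4.0.16 and DESeq2 1.42.0, used for that alone), totals with Rn45s, summed counts, thinning, neurons with at most 900 Apoe counts or at least 500000 counts, and leaving out the highest neuron of each type. Restricting to neurons with a Y-linked read, or to those with under 20 CPM of inhibitory neuron genes, was added after seeing the data. Python 3.11.15, numpy 2.4.6, pandas 2.3.3, scipy 1.17.1 and R 4.3.3 were used. Some genes are not reported here.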

Additional observations from a re-analysis of the deposited data

How the results depend on the processing

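No member called apart had its direction reversed under the 14 alternatives run for each comparison. Those that changed only the detection filter could not change a ratio or its direction. The number of members at least 2-fold apart ranged from 5 to 9 for ACP against ACV (7 as reported), from 4 to 10 for ACP against laryngeal (5) and from 7 to 12 for ACV against laryngeal neurons (9). For ACP against laryngeal neurons it was 9 among neurons with a Y-linked read (5 higher in ACP, 4 in laryngeal) and 10 among those with under 20 CPM of inhibitory neuron genes (6 and 4). Totals with Rn45s, which shifted the median log2 ratio of all genes by 0.52 for ACP and 0.45 for ACV against laryngeal neurons, gave 6 higher in ACP and 0 in laryngeal neurons, against 4 and 1. Relative to that shift the ratio of Glra2 between ACP and laryngeal neurons still passed 2-fold, as did that of Glrb between ACV and laryngeal neurons. Adding 10 in place of 1 ended the calls of Gabrd and Glra2 between the cardiac types, of Gabrg1 between ACP and laryngeal and of Gabra4 and Gabrg3 between ACV and laryngeal neurons. Median log2 ratios of Slc12a5 to Slc12a2 in ACP, ACV and laryngeal neurons were 4.57, 4.70 and 5.75 with 0.1 added and 4.03, 4.21 and 5.24 without division by length. That of Glra1 to Glra2 in ACV neurons was 1.63 with 0.1 added and 0 after thinning. The cause of these shifts was not tested. Of the single log2 ratios, 822 stayed within 1.5-fold and 46 did not. The 822 include the ratios under settings that changed only the detection filter, which were unchanged by construction. No paired analysis was possible because the labels give no replicate number or mouse shared between types. Depth limits the rare subunits, for which a few reads decide the value.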
